A study of Mus musculus with 6 samples.

Results

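The genes described here carry iron into the cell, out of it and into its stores: Tfrc, Tfr2, Slc11a2, Slc40a1, Steap3, Fth1, Ftl1, Ireb2, Aco1 and Slc25a37. They were read in common myeloid progenitors (CMP), marrow cells from which both the granulocyte and monocyte line and the megakaryocyte and red cell line descend. Every probe set whose annotation names exactly 1 gene, and that gene a member, was taken. This gave 24 of the 45101 probe sets, for 9 of the 10 genes, and 3 of the 24 are array control probe sets for Tfrc. Ftl1, the ferritin light chain, is named only on 3 probe sets that also name other genes, and is not analysed here.

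Marrow of C57BL6 mice was flushed from femurs, tibiae and ilia, and CMP were sorted on H2-DCFDA staining, which becomes fluorescent on oxidation and so reports reactive oxygen species (ROS). The high-ROS and the low-ROS fraction were its opposite ends, each with 15% to 20% of all CMP, and neither fraction received a treatment that the labels name. Total RNA was amplified, labelled with biotin and read on 6 one-colour arrays, 3 of high-ROS CMP and 3 of low-ROS CMP. The series asks what ROS do in the step from CMP to megakaryocyte-erythrocyte progenitors. The labels give neither the age of the mice nor the number of mice or sorts behind a group, so the p-values cover the spread of these 6 samples, which could be technical alone.

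Iron enters most blood cells bound to transferrin, through the transferrin receptor and endosomes, and leaves through ferroportin. What is not used at once goes to mitochondria for heme and iron-sulfur clusters or into ferritin, a protein cage that keeps iron from reacting with peroxide. Developing red cells take up much of the body's iron for hemoglobin. Iron regulatory proteins sense the free iron in the cell, and when it is scarce they bind stem-loops in messenger RNAs, which protects Tfrc mRNA from decay and blocks translation of ferritin mRNA. Ferritin protein can therefore change without a change of its mRNA, which alone was measured here.

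Among members with several probe sets, the means were lower in high-ROS CMP on both of Tfr2 and both of Fth1, and higher on all 3 of Aco1. Those of Tfrc differed in sign between probe sets. No member passed the test given below. The paralogous transferrin receptors, Tfr2 and Tfrc, were chosen for a view of sequence after their values were seen. The first upstream window that the RefSeq promoter table holds for each receptor (mouse GRCm38.p6, plus strand, 5′ to 3′) is shown to place them side by side. Matches to ACGTG, 1 form of the core letters of the hypoxia response element, are in capitals, and other forms were not searched. The Tfr2 window is chr5:137569590-137569839 and the Tfrc window chr16:32608646-32608895. The table ends each window at 1 of several transcript starts, and the RefSeq Tfr2 gene begins at 137569822, inside the end of its window.
Tfr2: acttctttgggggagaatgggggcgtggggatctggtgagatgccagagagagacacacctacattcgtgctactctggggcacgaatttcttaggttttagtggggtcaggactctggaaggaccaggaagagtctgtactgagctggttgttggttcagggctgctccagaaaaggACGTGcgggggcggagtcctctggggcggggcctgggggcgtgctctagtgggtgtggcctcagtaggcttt
Tfrc: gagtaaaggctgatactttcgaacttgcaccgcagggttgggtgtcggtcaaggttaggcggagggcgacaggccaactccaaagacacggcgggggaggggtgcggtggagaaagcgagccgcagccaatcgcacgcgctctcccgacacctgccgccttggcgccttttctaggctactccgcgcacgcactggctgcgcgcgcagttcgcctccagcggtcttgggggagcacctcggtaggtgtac
The Tfr2 window held 1 match, from 72 to 68 bases before the transcript start of that window, and the Tfrc window shown held none, although a later Tfrc window held 1, from 228 to 224 bases before its own start. Over all 32851 RefSeq windows of 250 bases, 16.6% held ACGTG on either strand. AGATAA, letters bound by GATA factors, stood in 9.99% of all windows, and TGACNNNGC, letters of the antioxidant response element, in 10.2%, and neither stood on either strand of the windows shown. A TGACNNNGC match can contain ACGTG. Of the 10 members, 7 had windows, 14 in all, of which 3 held ACGTG (2 of Tfr2 and 1 of Tfrc), 1 (of Steap3) AGATAA and 0 TGACNNNGC. A match is a description of letters and not a bound site.

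The arrays were alike in scale, with median signals of 40.4 to 42.5 and trimmed means of 181 to 198, lowest on high-ROS replicate 3. A signal near the median is read as near background, and 17 of the 21 member probe sets that are not controls had a mean over the 6 arrays above the median probe set. The Gapdh 3′ to 5′ ratio, a measure of RNA integrity and labelling, was 3.57, 2.997 and 4.53 on the high-ROS arrays and 3.19, 2.84 and 2.54 on the low-ROS arrays. It was highest on high-ROS replicate 3. The progenitor markers Kit, Cd34 and Mpo were well above background in both groups on their brightest probe sets. Cd34 had 584 ± 231 in high-ROS and 417 ± 71.3 in low-ROS CMP, with overlap (SD, n = 3 each). Kit had 544.7 ± 19.2 in high-ROS and 642 ± 96.9 in low-ROS CMP, without overlap, and Mpo 7103 ± 400.1 in high-ROS and 6822 ± 268 in low-ROS CMP (SD, n = 3 each). The dimmer Kit probe set, 1415900_a_at, had 69.3 ± 16.7 in high-ROS and 138.6 ± 56.5 in low-ROS CMP (SD, n = 3 each), without overlap. Its fold was 0.568 (0.373 to 0.865, adjusted p = 0.690 by limma). The lymphocyte genes Cd79a and Cd3e had means of 250.5 and 88.1 in high-ROS CMP, against 253 and 70.1 in low-ROS CMP. Neutrophil genes were bright as well, S100a8 and S100a9 most of all (S100a9 was chosen after its values were seen): the summed signal of 9 neutrophil genes was 53126 to 55388 on high-ROS and 53694 to 58009.8 on low-ROS arrays. Of their 10 probe sets, 0 had a higher and 10 a lower mean log2 value in high-ROS CMP. An unadjusted p under 0.05 (limma) was reached by 0. Groups lay apart for 3 of the 10, each lower, 30% where 5.95% of all probe sets were lower without overlap.

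No iron gene passed the test. Of the 21 probe sets, 0 had an adjusted p under 0.05 (limma, Benjamini-Hochberg over 45037 probe sets), where 10 of all probe sets did, 0.0222%. The smallest adjusted p of a member was 0.696, for Tfr2. An unadjusted p under 0.05 was reached by 4 member probe sets, against 6.96% of all probe sets. The high-ROS mean was the lower one for 3 of the 4 (3.57% of all) and the higher one for 1 (3.39% of all). They belong to 3 genes, Tfr2, Slc40a1 and Aco1, and probe sets of 1 gene are not independent. Groups that did not overlap were found for 6 member probe sets, where 12.7% of all probe sets had such groups. Of the 6, 5 were lower (5.95% of all) and 1 higher (6.72% of all). The 5 include Steap3 1453498_x_at, which was under the median signal in both groups. With only the brightest probe set of each gene, 1 of 9 genes was under 0.05 against a background of 7.45%, and 2 of 9 had groups that did not overlap, against 13.4%. The median log2 fold change, high-ROS over low-ROS on the scale of signal plus 16, was -0.10 over the 21 probe sets and 0.0018 over all probe sets.

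**Figure D1:**
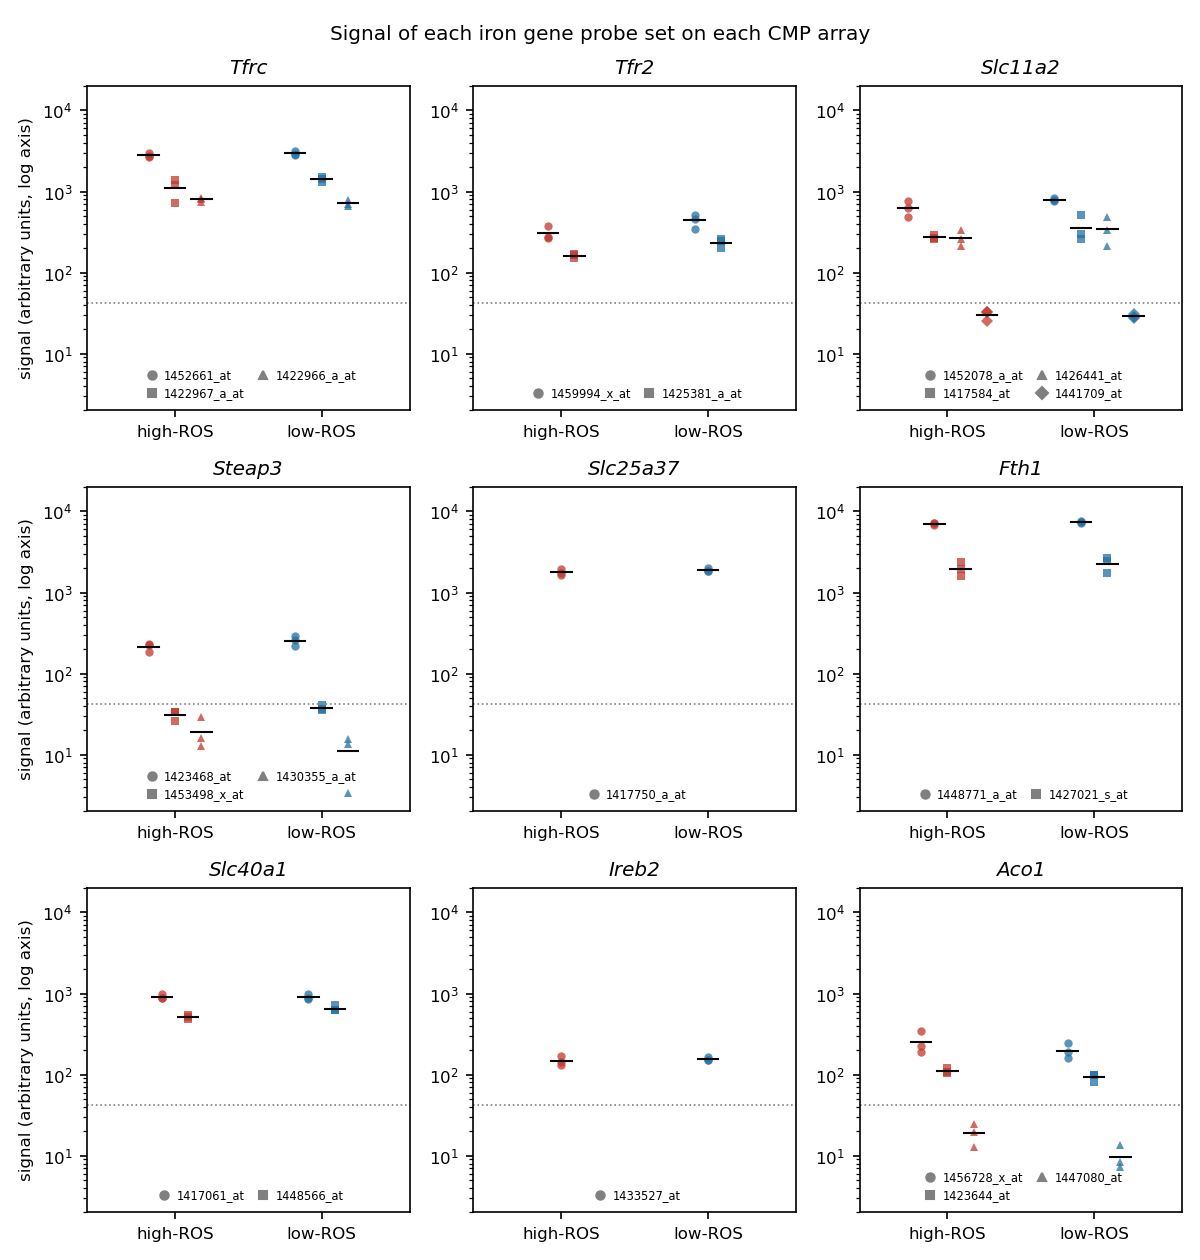
Signal of each member probe set (arbitrary units, log axis) on the 3 high-ROS arrays, in red, and the 3 low-ROS arrays, in blue, with 1 panel per gene, 1 marker shape per probe set, black bars for group means and a dotted line at the median probe set, 42.3. Both Tfr2 probe sets have lower means in high-ROS CMP, and 4 probe sets of Slc11a2, Steap3 and Aco1 lie under the dotted line.

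Tfrc encodes the transferrin receptor, the main entry of iron into dividing and erythroid cells. On its brightest probe set, 1452661_at, the signal was 3017, 2771 and 2684 in high-ROS CMP and 3164, 2843 and 2876 in low-ROS CMP. The groups overlapped, with a fold of 0.954 (95% interval 0.829 to 1.10, adjusted p = 0.904 by limma). Probe set 1422966_a_at read 829.6, 752 and 817 in high-ROS CMP against 661, 705 and 791 in low-ROS CMP, with overlap and a fold of 1.11 (0.92 to 1.34).

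The third Tfrc probe set gave a different picture through the low signal of 1 array. Probe set 1422967_a_at read 1213, 1389.6 and 716 in high-ROS CMP and 1293, 1426 and 1523 in low-ROS CMP. High-ROS replicate 3 stood far below the other 5 arrays, which overlapped. The log2 fold change was -0.40 (SE 0.206, adjusted p = 0.732 by limma) with all arrays and -0.12 without high-ROS replicate 3. With the Gapdh ratio as a covariate it was 0.10.

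The control probe sets read the 5′, middle and 3′ segments of the same Tfrc transcript. The middle segment had a signal of 586, 742 and 345 in high-ROS CMP against 596, 692 and 744 in low-ROS CMP. On high-ROS replicate 3 it was 51.0% of its low-ROS mean, and probe set 1422967_a_at was at 50.6% of its own. The 5′ segment read 1103, 1145 and 951 in high-ROS CMP against 1221, 1184 and 1216 in low-ROS CMP. The 3′ segment read 705, 745 and 617 in high-ROS CMP against 764, 768 and 783 in low-ROS CMP. Both end segments lay lower on every high-ROS array than on any low-ROS array, by a smaller amount, with folds of 0.883 (0.742 to 1.05) for the 5′ and 0.892 (0.739 to 1.08) for the 3′ segment when control probe sets were kept in the fit, and adjusted p of 0.773 and 0.802 (limma). The ratio of 3′ to 5′ Tfrc signal was nearly constant, at 0.639, 0.650 and 0.649 on high-ROS and 0.626, 0.649 and 0.644 on low-ROS arrays. The ratio of middle to 5′ signal was 0.532, 0.648 and 0.363 on high-ROS and 0.488, 0.585 and 0.612 on low-ROS arrays. It was lowest on the array with the highest Gapdh ratio, and the part of RNA integrity in these values was not tested.

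**Figure D2:**
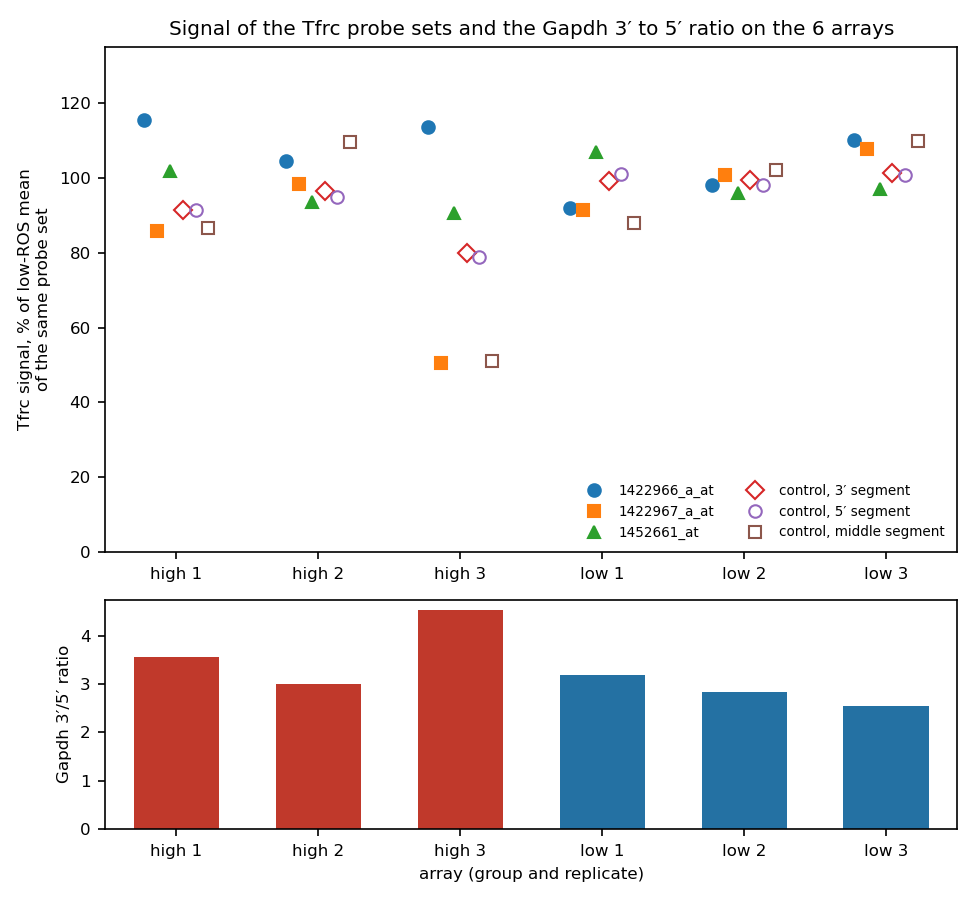
Upper panel: signal of the 6 Tfrc probe sets on each array, in percent of the low-ROS mean of the same probe set, with filled markers for ordinary and open markers for control probe sets. Lower panel: the Gapdh 3′ to 5′ ratio of the same arrays, red for high-ROS and blue for low-ROS; on high-ROS replicate 3, where the ratio is 4.53, 1422967_a_at and the middle segment stand at 50.6% and 51.0% while the other 4 probe sets lie between 78.8% and 113.7%.

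Tfr2, a second receptor for transferrin that senses its iron load and acts in liver and in red cell precursors, showed the smallest p of the members. On probe set 1425381_a_at the signal was 170.1, 163 and 151 in high-ROS CMP and 243, 258 and 203 in low-ROS CMP. Every high-ROS array lay below every low-ROS array. The fold was 0.711 (95% interval 0.549 to 0.922), a log2 fold change of -0.49 (SE 0.169), with an unadjusted p of 0.0147 and an adjusted p of 0.696 (limma). Probe set 1459994_x_at, whose suffix marks probes that may also read other transcripts, had 270.3, 278 and 375 in high-ROS CMP and 514, 462 and 343 in low-ROS CMP. Here the groups overlapped, through high-ROS replicate 3 and low-ROS replicate 3. The fold was 0.712 (0.532 to 0.953), with an unadjusted p of 0.0263 and an adjusted p of 0.702 (limma).

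The mean of Tfr2 was thus about 0.71 of that in low-ROS CMP on both probe sets, but neither difference passed the correction for all probe sets. It was lower in every alternative run. Leaving out 1 array at a time gave log2 fold changes between -0.58 and -0.42 on 1425381_a_at and between -0.65 and -0.37 on 1459994_x_at. With the Gapdh ratio as a covariate the values were -0.50 and -0.83, with adjusted p of 0.876 and 0.688 (limma). With 3 arrays a group, the smallest p that exact permutation allows is 0.1, and no such p is printed here.

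Red cell precursors express Tfr2, so the markers of erythroid and megakaryocytic cells are given beside it. The summed signal of 16 erythroid genes was 22451 to 24203 on high-ROS and 25975 to 26084 on low-ROS arrays, without overlap. Of their 27 probe sets, 20 had a lower and 7 a higher mean in high-ROS CMP. Of the lower ones, 5 had an unadjusted p under 0.05, 18.5% of the list where 3.57% of all probe sets were lower at that p. Of the higher ones 0 did, and 0 of the 27 had an adjusted p under 0.05 (limma). The 5 were all probe sets of Slc4a1, with Car2 and the dimmer probe set of Tmcc2, and probe sets of 1 gene are not independent. With only the brightest probe set of each gene, 2 of 16 genes were lower at that p. That is 12.5%, where 7.45% of all genes were under it in either direction. The median log2 fold change over the brightest probe set of each gene was -0.08. Gata1, the master transcription factor of the lineage, had 493 ± 161 in high-ROS and 605 ± 93.6 in low-ROS CMP (SD, n = 3 each). Klf1 had 447 ± 78.7 and Alas2, the erythroid heme enzyme, 1858 ± 173 in high-ROS CMP, against 456 ± 26.1 and 1932 ± 19.3 in low-ROS CMP (SD, n = 3 each). All 3 genes overlapped between the groups. The probe set of the globin gene Hba-a1 stayed under 10 on all arrays, and the other globin genes of the list, Hbb-b1 and Hbb-bt, had no probe set with a single name. Slc4a1, the brightest gene of the list, was lower without overlap on each of its probe sets, with folds of 0.813, 0.745 and 0.884. Car2 was also lower without overlap, with a fold of 0.865. As the brightest genes of the list, Slc4a1 and Car2 weigh most in its sum, and no sum without them was made. Of the 27 probe sets, 7 were lower and 1 higher without overlap, where 5.95% and 6.72% of all were. The higher one was the dimmest of Ank1, 1443291_at, with a fold of 1.36 (0.979 to 1.90). The brightest of Ank1, 1419421_at, overlapped, with a fold of 1.004. The summed signal of 10 megakaryocyte genes was 1552 to 1766 on high-ROS and 2236 to 2306 on low-ROS arrays, and most of the gap came from Pf4, platelet factor 4, with 666 ± 116 in high-ROS and 1107 ± 41.6 in low-ROS CMP (SD, n = 3 each, adjusted p = 0.262 by limma). Without Pf4 the sum of the other 9 genes was 907 to 1054 on high-ROS and 1100.5 to 1247 on low-ROS arrays. Of the 12 megakaryocyte probe sets, 9 had a lower and 3 a higher mean log2 value in high-ROS CMP, with 0 adjusted calls. Of the lower ones, 3 had an unadjusted p under 0.05, 25% of the list where 3.57% of all probe sets were lower at that p. They were of Pf4, Itga2b (fold 0.598) and Treml1 (fold 0.684). The 3 with a higher mean were of Ppbp and Tubb1, under the median signal in both groups, and Gp1bb, near it. Itga2b and Treml1 were under the median signal in high-ROS CMP as well. Slc4a1, Car2, Tmcc2, Ank1, Pf4, Itga2b, Treml1, Ppbp, Tubb1 and Gp1bb were chosen for naming after their values were seen.

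Gata2, a transcription factor of early progenitors and the megakaryocyte line, was the only gene of the marker lists that passed the test, and it too was chosen after its values were seen. On 1428816_a_at it fell to 210.3, 240.3 and 168 in high-ROS CMP, against 593, 604 and 594 in low-ROS CMP. The groups lay far apart, with a fold of 0.359 (0.281 to 0.459) and an adjusted p of 0.0147 (limma). This call was lost in 8 of 18 alternatives, namely the fit with no trend (adjusted p = 0.103), with the replicate block (0.0508), with the Gapdh ratio (0.203), without both end arrays of the first principal component (0.0533) and without high-ROS replicate 1 (0.178) or low-ROS replicate 1 (0.107), 2 (0.164) or 3 (0.184), all by limma, while the log2 fold change stayed between -1.59 and -1.10. On 1450333_a_at it had 291 ± 49.2 in high-ROS and 484 ± 11.3 in low-ROS CMP (SD, n = 3 each), with a fold of 0.608 and an adjusted p of 0.421 (limma). In sorted populations fewer cells of a type and less RNA per cell cannot be told apart, and the part of these lineages and of Gata2 in the Tfr2 values was not tested.

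**Figure D3:**
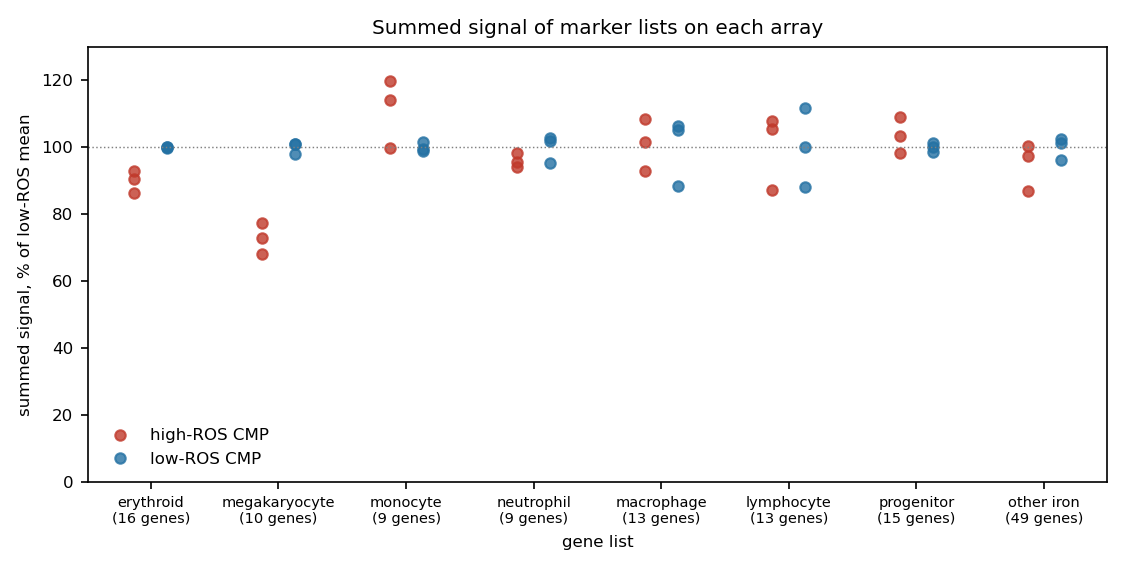
Summed signal of the brightest probe set of each gene of 7 marker lists and of the other iron genes on each array, in percent of the list's low-ROS mean, with high-ROS arrays in red left of low-ROS arrays in blue. The erythroid and megakaryocyte sums do not overlap between the groups, while the monocyte, macrophage, lymphocyte, neutrophil, progenitor and other iron sums do.

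Steap3, the endosomal reductase that turns ferric into ferrous iron after uptake, was read above background by 1 probe set. That probe set, 1423468_at, had 223, 234 and 184 in high-ROS CMP and 294, 217 and 257 in low-ROS CMP. The groups overlapped, with a fold of 0.846 (0.645 to 1.11, adjusted p = 0.797 by limma). Its other probe sets were dim. Probe set 1453498_x_at had 31.1 ± 4.24 in high-ROS and 37.9 ± 3.01 in low-ROS CMP (SD, n = 3 each), without overlap. Probe set 1430355_a_at had 19.3 ± 8.58 in high-ROS and 11.0 ± 6.65 in low-ROS CMP (SD, n = 3 each), with overlap. These dim probe sets differed in opposite directions, and signals this low carry little information on the gene.

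Slc11a2 encodes DMT1, which carries ferrous iron out of the endosome. Its brightest probe set, 1452078_a_at, read 631, 768 and 489.9 in high-ROS CMP and 772, 822 and 789 in low-ROS CMP. The groups did not overlap, but the high-ROS arrays ranged widely, and high-ROS replicate 2 came close to low-ROS replicate 1. The fold was 0.784 (0.614 to 1.003), with an unadjusted p of 0.0524 and an adjusted p of 0.718 (limma). The log2 fold change of -0.35 became -0.19 without high-ROS replicate 3 and -0.50 without high-ROS replicate 2. With the Gapdh ratio as a covariate it was -0.05, at an unadjusted p of 0.744 and an adjusted p of 0.981 (limma).

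For the other bright probe sets of Slc11a2 the size of the difference hung on single low-ROS arrays. Probe set 1417584_at read 292, 266 and 259 in high-ROS CMP and 509.8, 296 and 261 in low-ROS CMP. Probe set 1426441_at read 212, 338 and 263 in high-ROS CMP and 488, 339 and 214 in low-ROS CMP. On both, low-ROS replicate 1 was the highest of all 6 arrays. Their log2 fold changes of -0.31 and -0.29 were -0.03 and -0.02 without that array, and -0.49 and -0.58 without low-ROS replicate 3. The last probe set, 1441709_at, was dim, at 30.3 ± 4.37 in high-ROS and 29.0 ± 1.37 in low-ROS CMP (SD, n = 3 each).

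Slc25a37, mitoferrin-1, brings iron into the mitochondria of red cell precursors for heme synthesis. Its single probe set read 1933, 1717 and 1653 in high-ROS CMP and 1989, 1839 and 1867 in low-ROS CMP. High-ROS replicate 1 lay among the low-ROS arrays, and the groups overlapped. The fold was 0.930 (0.796 to 1.09, adjusted p = 0.857 by limma). Slc25a28, the mitoferrin used in most other cells, had 206 ± 34.7 in high-ROS and 227 ± 5.78 in low-ROS CMP (SD, n = 3 each), with a fold of 0.906 (0.695 to 1.18).

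Fth1 encodes the ferritin heavy chain, which oxidises iron as it enters the cage. Its brighter probe set, 1448771_a_at, read 7099.9, 7117 and 6836 in high-ROS CMP and 7258, 7359 and 7643 in low-ROS CMP. All high-ROS arrays lay below all low-ROS arrays, by a small amount: the fold was 0.946 with a 95% interval of 0.853 to 1.05 and an adjusted p of 0.831 (limma). This was the narrowest interval among the member probe sets. The other probe set, 1427021_s_at, whose suffix marks probes shared by several transcripts, read 1930.4, 2386 and 1597 in high-ROS CMP and 1719.8, 2437 and 2666 in low-ROS CMP. The groups overlapped widely, with a fold of 0.871 (0.663 to 1.14). Its log2 fold change of -0.20 was -0.06 when high-ROS replicate 3 was left out, -0.39 when low-ROS replicate 1 was, and 0.22 when the Gapdh ratio was a covariate. Fth1 has many processed copies in the genome, and probes may read such copies as well.

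Slc40a1, ferroportin, is the only known exporter of iron from mammalian cells, and its probe sets disagreed. On the brighter, 1417061_at, the signal was 984, 875 and 890.4 in high-ROS CMP and 864, 891 and 994 in low-ROS CMP. The groups covered nearly the same range, with a fold of 1.0003 (0.836 to 1.197). On 1448566_at it was 520.0, 550.4 and 481 in high-ROS CMP and 712, 626 and 620.1 in low-ROS CMP. Here every high-ROS array was below every low-ROS array, with a fold of 0.797 (0.653 to 0.972), an unadjusted p of 0.0291 and an adjusted p of 0.702 (limma). The labels and the annotation do not say which transcripts each probe set reads, and the difference between the probe sets was not tested.

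**Figure D4:**
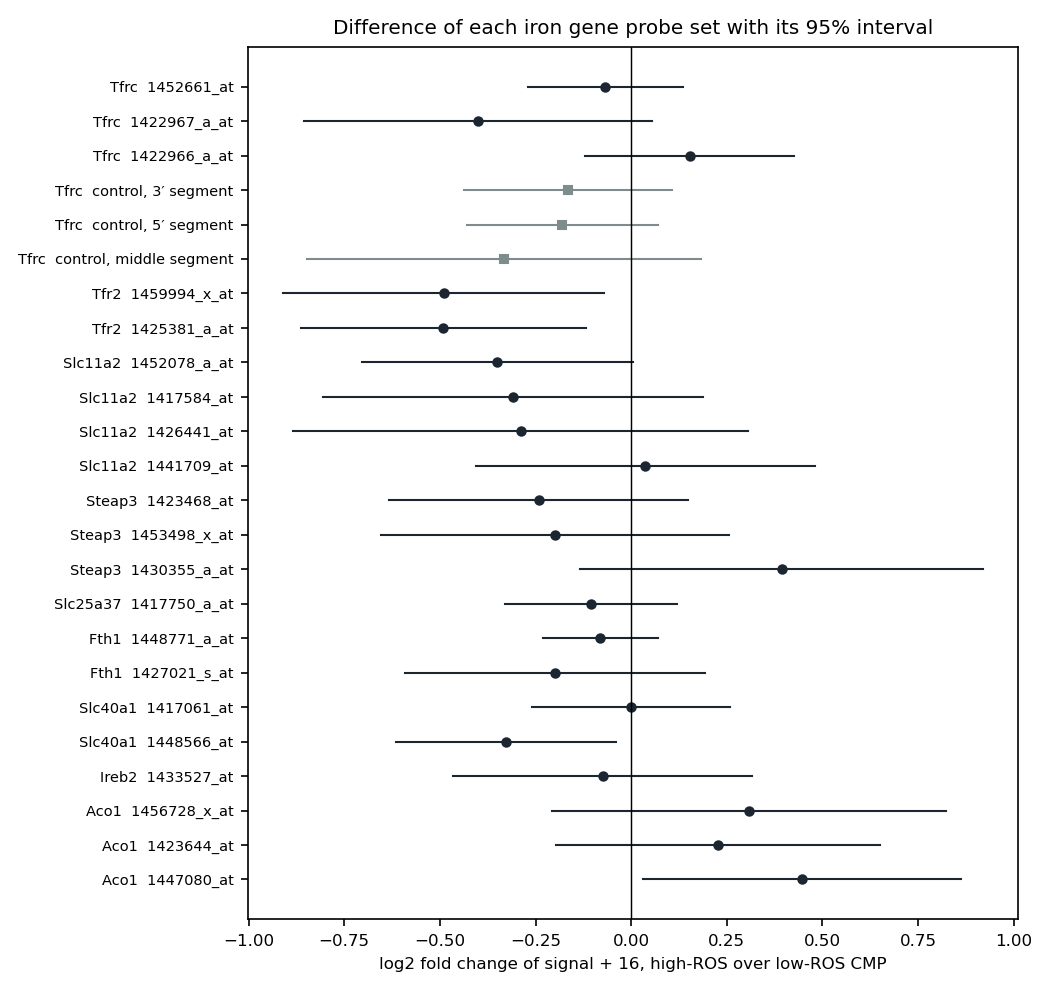
Log2 fold change of signal plus 16, high-ROS over low-ROS CMP, with its 95% interval, for the 21 member probe sets (circles) and the 3 Tfrc control probe sets (squares, from the fit that kept controls). The intervals of both Tfr2 probe sets and of Slc40a1 1448566_at lie below 0, that of the dim Aco1 1447080_at lies above 0, and the others include 0.

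The sensors of iron are Ireb2, iron regulatory protein 2, which is degraded when iron is plentiful, and Aco1, iron regulatory protein 1, which is an aconitase when it holds an iron-sulfur cluster. Ireb2 read 142, 169 and 133 in high-ROS CMP and 151, 153 and 163 in low-ROS CMP. The low-ROS values lay within the range of the high-ROS values, and the fold was 0.950 (0.724 to 1.24, adjusted p = 0.950 by limma). Both sensors act as proteins whose activity is set after translation, which arrays do not read.

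Aco1 was the only member with a higher mean in high-ROS CMP on each of its probe sets. Probe set 1456728_x_at read 228, 189 and 341 in high-ROS CMP and 246, 190.2 and 158 in low-ROS CMP, with overlap and a fold of 1.24 (0.866 to 1.77). Probe set 1423644_at read 106, 119 and 108 in high-ROS CMP and 80.5, 99.1 and 99.2 in low-ROS CMP, without overlap and with a fold of 1.17 (0.872 to 1.57). The third, 1447080_at, was near background at 24.7, 12.9 and 19.8 in high-ROS CMP against 8.30, 7.25 and 13.4 in low-ROS CMP, with overlap between high-ROS replicate 2 and low-ROS replicate 3. It had an unadjusted p of 0.0379 and an adjusted p of 0.707 (limma). Without high-ROS replicate 3 the log2 fold change of 1456728_x_at was 0.08, against 0.31 with all arrays, and adjusting for the Gapdh ratio made it -0.21.

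Other genes of iron traffic and use, from a list of 54 of which 49 had a probe set with a single name, gave no call either; it shares Ltf and Lcn2 with the neutrophil genes. Of their 89 probe sets, 0 had an adjusted p under 0.05 (limma), and an unadjusted p under 0.05 was reached by 3 with a higher and 3 with a lower mean, which is 6.74% against the background of 6.96%. The median log2 fold change was 0.04 over the 89 probe sets and -0.02 over the brightest probe set of each gene. Groups did not overlap for 5 higher and 5 lower probe sets, 11.2% against 12.7% of all.

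The 6 probe sets under 0.05 belonged to Isca1, Lyrm4, Nfs1, Exoc6 and Cd163. Isca1, a protein of iron-sulfur cluster assembly, had lower means on both of its probe sets: 1423651_at read 1233, 1305 and 1203 in high-ROS CMP and 1436, 1510.2 and 1468 in low-ROS CMP, and 1423652_at read 437, 416 and 377 in high-ROS CMP and 502, 531 and 546 in low-ROS CMP. The groups did not overlap on either, with folds of 0.849 (0.728 to 0.990) and 0.785 (0.640 to 0.962) and adjusted p of 0.707 and 0.702 (limma). Lyrm4, a partner of the cysteine desulfurase, had a fold of 0.750 (0.576 to 0.978). Nfs1, the desulfurase itself, had a fold of 1.42 (1.02 to 1.96) on 1416373_at, and 1.19 and 1.10 on its other, dimmer probe sets. Lyrm4 and Nfs1 act in the same cluster assembly as Isca1. Exoc6, an exocyst subunit needed for transferrin recycling in mouse red cell precursors, had a fold of 1.34 (1.04 to 1.74) on 1424230_at. On its brightest probe set, 1460576_at, the fold was 1.07 (0.889 to 1.28) with overlap, and on its dimmer ones 0.934 and 1.03. Cd163, the macrophage receptor for hemoglobin bound to haptoglobin, had 610.4 ± 70.2 in high-ROS and 448 ± 111 in low-ROS CMP (SD, n = 3 each). The groups overlapped, with a fold of 1.37 (1.03 to 1.83). The summed signal of 13 macrophage genes was 2795 to 3268 on high-ROS and 2659.8 to 3205 on low-ROS arrays, with overlap. Of their 23 probe sets, 9 had a higher and 14 a lower mean log2 value in high-ROS CMP. Of the defining genes, Spic, C1qa and Adgre1 had means of 24.5, 31.8 and 110.1 in high-ROS CMP, against 34.5, 34.9 and 108.9 in low-ROS CMP. The related C1qb, on its brightest probe set, and C1qc, both chosen after their values were seen, had means of 487 and 77.1 in high-ROS CMP, against 365 and 62.3 in low-ROS CMP, with overlap. The summed signal of 9 monocyte genes was 16036 to 19242 on high-ROS and 15868 to 16292 on low-ROS arrays, with overlap. Of their 17 probe sets, 7 had a higher mean at an unadjusted p under 0.05, which is 41.2% against 3.39% of all probe sets. The 7 were of Csf1r, Ly86, Ms4a6c, F13a1, Irf8 and Ccr2, named after their values were seen. An adjusted p under 0.05 was reached by 0 (limma). Groups did not overlap for 47.1% of the 17, against 12.7% of all. The monocyte list was chosen with earlier results of these data known, so its shares are a description and not a test. The part of monocyte and macrophage genes in the Cd163 values was not tested.

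**Figure D5:**
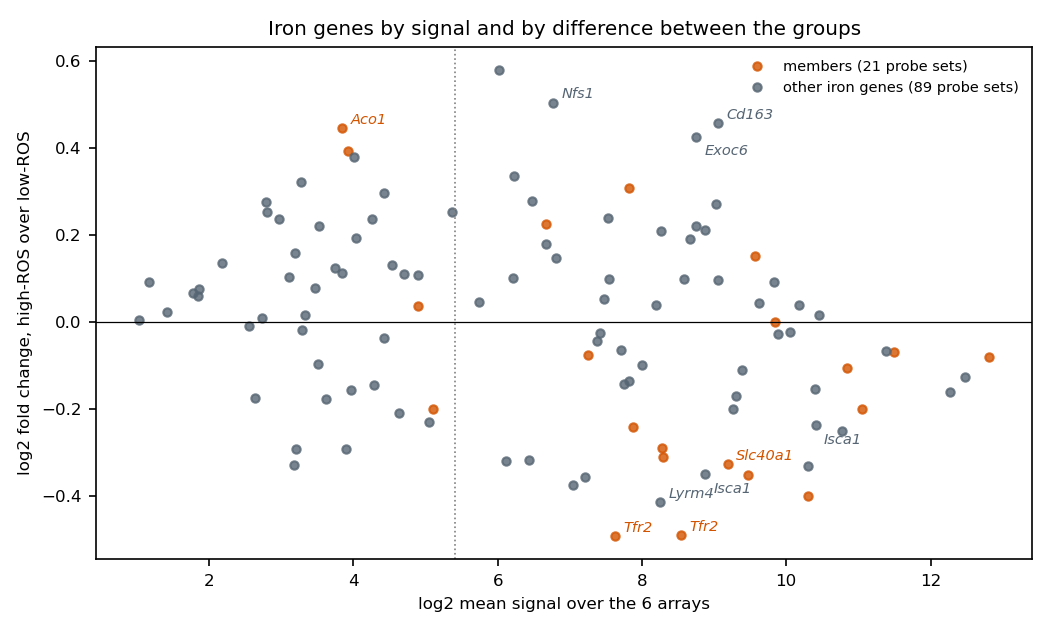
Log2 fold change, high-ROS over low-ROS CMP, against the log2 mean signal over the 6 arrays, for 21 member probe sets (orange) and 89 probe sets of other iron genes (grey), with names at an unadjusted p under 0.05 and a dotted line at the median probe set. Both kinds scatter on either side of 0, and no probe set passed the adjusted threshold.

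Partners of ferritin and of the iron sensors were measured too. Ncoa4, the receptor that delivers ferritin to lysosomes, read 1295, 1218 and 858 in high-ROS CMP and 1369, 1318 and 1506 in low-ROS CMP on 1450006_at. High-ROS replicate 3 was again the lowest array, and the fold was 0.795 (0.629 to 1.01, adjusted p = 0.718 by limma). On its brighter probe set, 1420808_at, the groups overlapped, at 1610 ± 345 in high-ROS and 1895 ± 239.9 in low-ROS CMP (SD, n = 3 each), with a fold of 0.841 (0.658 to 1.08). Fbxl5, which marks iron regulatory protein 2 for degradation, had a fold of 0.870 (0.691 to 1.10), and Pcbp1, a chaperone that loads ferritin, 1.01 (0.834 to 1.23). Hmox1, which frees iron from heme and responds to oxidants, had 194, 201 and 205 in high-ROS CMP and 144, 216 and 294 in low-ROS CMP, with a fold of 0.956 (0.674 to 1.36). All high-ROS values of Hmox1 lay within the low-ROS range. Hfe, a partner of the transferrin receptors, had a fold of 0.782 (0.541 to 1.13) on its brighter probe set, and Flvcr1, the heme exporter, had folds of 1.21 (0.846 to 1.74) and 1.17 (0.875 to 1.55).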

How the data were processed

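The authors deposited linear intensity values, 1 for each probe set on each array. The sources used here do not give how intensity was summarised from probes or scaled. RNA was isolated with the RNeasy Micro kit and biotin-labelled by NuGEN Ovation, as the labels' protocols state. The 6 value columns were matched to samples by their names, and 0 value columns were left unused.

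Probe sets were named from a platform annotation table: 34958 had 1 symbol, 932 had several and 9211 had none and are unnamed here. Through Entrez identifiers and RefSeq (GRCm38.p6) 0 symbols changed. After adding 16 and taking log2, with no further normalization, all 45037 probe sets that are not among the 64 controls were fitted with limma 3.58.1 in R 4.3.3 (lmFit, eBayes with trend, 2-sided). The contrast was high-ROS over low-ROS, with Benjamini-Hochberg adjustment over all of them and a threshold of 0.05. Folds and 95% intervals are on the scale of signal plus 16, which shrinks those of dim probe sets. Residual degrees of freedom were 4, or 10.7 after moderation. The number of arrays limits the precision. Plots were made in matplotlib 3.10.9 under Python 3.11.15.

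Members and lists were chosen with earlier results of these data known. Named genes are all members, other iron genes at an unadjusted p under 0.05, 8 more of them whatever their p (Trf is not analysed here) and defining markers. The steps were tested on simulated data. The alternatives were fits without the trend, with quantile normalization, pseudocounts of 1 and 64, bright probe sets only, array weights, a replicate block, 1 test per gene, the Gapdh ratio as a covariate, arrays left out, an adjusted p under 0.1 and, chosen after seeing the data, control probe sets kept.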

Additional observations from a re-analysis of the deposited data

How the results depend on the processing

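Under the 18 alternative fits, 0 of 350 member values had an adjusted p under 0.05 (limma), and the smallest was 0.430. The sign held for 12 of 21 member probe sets, Tfr2, the bright Fth1 probe set, Slc40a1 1448566_at and Slc25a37 among them, and changed in 15 values. With the Gapdh ratio as a covariate, log2 fold changes were 0.10 for Tfrc 1422967_a_at, 0.22 for Fth1 1427021_s_at, 0.0948 for Ireb2 and -0.21 for Aco1 1456728_x_at. Without the extreme arrays of the first principal component (high-ROS replicate 3 and low-ROS replicate 1) they were 0.0158 for Tfrc 1452661_at, 0.00204 for Slc11a2 1417584_at, -0.0167 for Slc11a2 1441709_at, -0.0206 for Slc40a1 1417061_at and -0.0160 for Steap3 1430355_a_at. Slc11a2 1441709_at was at -0.0239 with array weights and between -0.00753 and 0.12 with 1 array left out. Slc40a1 1417061_at was at -0.16 as the mean of the probe sets of the gene, which brings in its other probe set, and between -0.0508 and 0.0592 with 1 array left out. The median of the other iron genes was -0.0221 with the brightest probe set per gene and between -0.00549 and 0.0564 with 1 array left out.

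Over all probe sets 1 was called higher and 9 lower. The calls were 0 higher and 0 lower with no trend (limma), 2 higher with quantile normalization, 0 higher with a pseudocount of 64, 2 higher and 13 lower among bright probe sets, and 10 higher and 23 lower with array weights. They were 3 higher with the brightest probe set per gene, 2 higher with the mean per gene, 0 higher with the Gapdh covariate, 0 higher without both end arrays, and 8 higher and 16 lower at an adjusted p under 0.1. Leaving out 1 array gave 0 higher (0 to 0) and 3 to 8 lower. The cause was not tested.

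With the replicate block 0 were called higher and 5 lower, and no member call changed. Deviations of same-numbered arrays correlated at 0.0985, 0.0860 and 0.00923, and high-ROS replicate 3 did not correlate best with its own number, so the numbers were not taken to pair the samples. Without a detection call, differences of the 4 dim member probe sets could not be told from background.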
